A study of Arabidopsis thaliana with 71 samples.

Results

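The comparison described here asks how the transcripts of Arabidopsis thaliana seedlings changed in the first 60 min after REVOLUTA (REV) fused to the glucocorticoid receptor (GR-REV) was activated with dexamethasone, beyond what the same treatment did to wild-type seedlings. It is the GR-REV change from 0 to 60 min minus the wild-type (WT) change from 0 to 60 min, and it uses 18 of the 71 libraries in the series. There were 3 GR-REV libraries at 60 min, 3 GR-REV libraries at 0 min, 6 WT libraries at 60 min and 6 WT libraries at 0 min. Statements below on activated libraries mean the 3 GR-REV libraries at 60 min, set against the rest of these 18 libraries only. All seedlings were of the Columbia ecotype, grew for 7 days in flasks of shaken liquid MS medium, received 50 µM dexamethasone in every group, and were frozen whole at the stated time. The submitters state that every replicate is biological. The promoter that drives the fusion and how many independent transgenic lines were used are not stated in the labels. No group given solvent alone was analysed here, so the passage of time and the handling are set against WT and not against untreated GR-REV seedlings. The values are FPKM, fragment counts scaled by transcript length and by library size, as normalised by the authors. Fold changes are differences on the scale log2(FPKM + 0.5) with their standard error (SE), a scale that understates the change of genes near 0.5 FPKM.

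REV belongs to the class III homeodomain-leucine zipper (HD-ZIP III) transcription factors, which promote the adaxial (upper) side of leaves, shoot meristem formation and vascular patterning. A fusion to the glucocorticoid receptor is held outside the nucleus until dexamethasone releases it, so transcripts that move soon afterwards can be read against a known starting time. The LITTLE ZIPPER (ZPR) proteins are short leucine-zipper proteins that pair with HD-ZIP III factors and keep them from binding DNA, and are themselves products of genes that HD-ZIP III factors switch on. HD-ZIP II factors such as HAT3 and ATHB2 are known from leaf polarity and from the response to shade.

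The transgene was visible in every GR-REV library. REV transcripts, in which reads of the fusion and of the native gene are added together, stood between 46.1 and 147 FPKM in the 6 GR-REV libraries and between 1.80 and 5.75 FPKM in the 12 WT libraries. REV at 0 min was higher in GR-REV than in WT by 4.91 ± 0.27 on the log2 scale (limma, adjusted p = 1.71e-20), and its change by 60 min beyond WT was −0.19 ± 0.35 (limma, adjusted p = 0.853). The lines also differed before activation, with 7.89% of the 19251 genes tested called between GR-REV and WT at 0 min, 4.91% higher and 2.98% lower in GR-REV. The number of reads behind each library is unknown, since FPKM does not keep it. The 18 libraries had medians between 4.32 and 4.93 FPKM, and between 335 and 1100 nuclear genes listed at 0. GR-REV 0 min replicates 1 and 3 and WT 0 min replicate 2 lay farthest from their groups on the main axis of the residuals. The summed level of 4 photosynthetic markers ran from 7001 to 79750 FPKM, with RBCS1A listed at 0 in 11 of the 18 libraries and between 23060 and 74450 FPKM in the other 7. An exact 0 beside such levels can be a failed estimate. Without RBCS1A, the sum of the other 3 markers ran from 1725 to 21430 FPKM. That of 3 root markers ran from 7.07 to 19.1 FPKM. The summed level of 2 seed storage markers ran from 0 to 3.14 FPKM in WT and from 1.93 to 10.4 FPKM in GR-REV, and its part in the results was not tested. Photosynthetic and root transcripts of seedlings were present in all 18 libraries.

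Activation of GR-REV changed 229 genes beyond WT at an adjusted p under 0.05 in limma, which is 1.19% of the genes tested. Of these, 140 rose (0.727% of genes tested) and 89 fell (0.462%). An unadjusted p under 0.05 in limma was found for 2137 of the 19251 genes. The rises were the larger changes, with a median of 1.32 on the log2 scale against −1.11 for the falls, and with 109 rises but 60 falls of at least 2-fold. There were 15 rises of at least 4-fold, while the fall of AT5G41761, at −2.24 on the log2 scale, was the single fall of that size. In 134 of the 140 genes that rose, all 3 GR-REV libraries at 60 min lay above all 3 at 0 min, and in 84 of the 89 that fell they all lay below. Among all genes tested, 6.62% and 6.74% had such separated libraries in the upward and downward direction. When WT replicates 4 to 6 were left out at every time, 55 genes rose and 19 fell. These are the only libraries whose codes differ from those of the GR-REV libraries, so that fit also holds no covariate for library codes. The number of calls rests in part on WT replicates 4 to 6. In that fit the calls were lost for XTH32, XTH9, AT2G36030, AT3G07425, NAC047, NAC6, AT1G75580, CAX7, AT1G15670, AT3G57380, AT4G37810, ATHB1, ATHB2, ATHB4, ATHB7, CIPK12, PIL1, KAN2, GH3.3, ABI1, HAI1, MYC2, KRP7, OFP6 and OFP16 among the genes named here by rule or family, each with its direction kept. Because whole seedlings were measured, a fall in the share of cells that express a gene cannot be told apart from less of its RNA per cell.

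**Figure D1:**
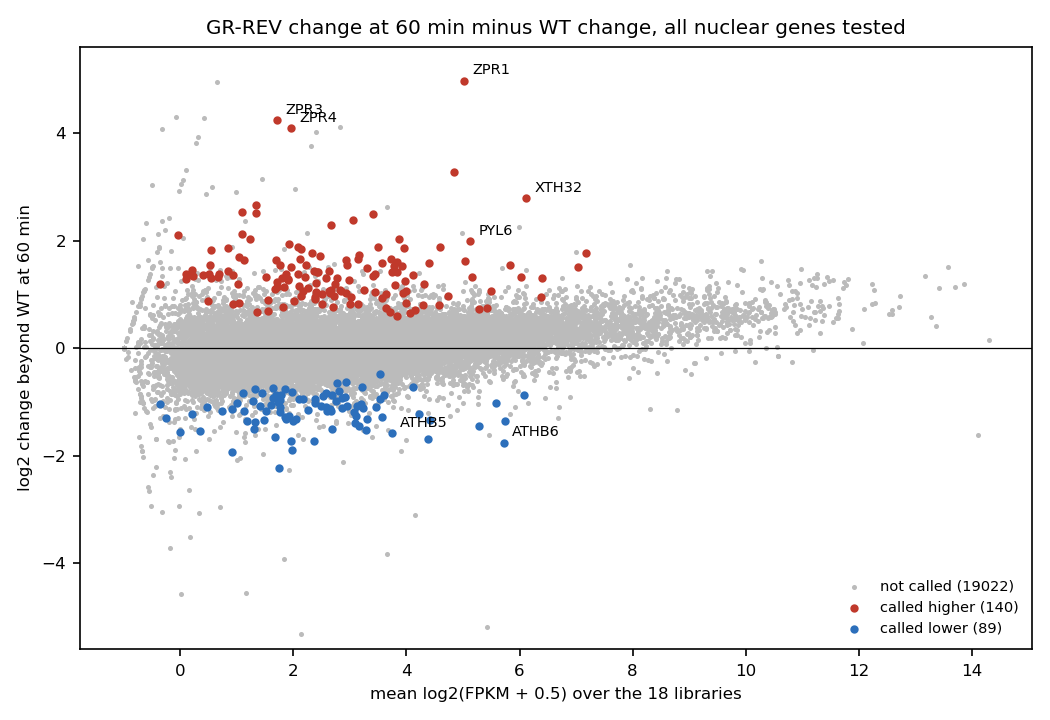
Change beyond WT at 60 min (y axis, log2 scale) against the mean log2(FPKM + 0.5) of each gene over the 18 libraries (x axis), for the genes tested, with genes that rose or fell at an adjusted p under 0.05 coloured. The 3 ZPR genes that rose sit at the top, between 4.08 and 4.98, and the cloud of genes not called bends upward at high mean level. The plot leaves out 2 genes beyond 5.6 on the y axis, neither of them called.

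Genes with high levels drifted upward as a class in this comparison. The median change beyond WT was −0.12 over the 6308 genes with a mean log2 level between 0 and 2, 0.14 over the 3558 genes between 4 and 6, and 0.72 over the 146 genes above 10, of which 0 were called. After a cyclic loess normalisation that removes this trend, 158 genes rose and 84 fell, and 199 of the 229 called genes were called again. The cause of the trend was not tested.

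The 3 largest rises were those of LITTLE ZIPPER genes. Of the 4 ZPR genes, 3 rose, against 0.727% of all genes tested. The family median was 4.16 on the log2 scale against 0.0091 for all genes tested. ZPR1 stood at 1738, 819 and 803 FPKM in the GR-REV libraries at 60 min and at 59.1, 45.2 and 20.3 FPKM at 0 min. In WT it ran from 7.60 to 21.2 FPKM (median 10.5) at 60 min and from 8.89 to 23.2 FPKM (median 13.6) at 0 min. Among the 18 libraries compared, every GR-REV library at 60 min was far above every library of the other groups. In addition, 2 of the 3 GR-REV libraries at 0 min were already above the highest WT library. The mean rose from 41.5 ± 19.6 FPKM to 1120 ± 535 FPKM (SD, n = 3), a change beyond WT of 4.98 ± 0.34 or 31.5-fold (limma, adjusted p = 3.72e-16). The difference between the lines at 0 min was itself 1.01 ± 0.25 (limma, adjusted p = 0.00673).

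ZPR3 rose from a much lower level. It read 46.5, 47.3 and 39.6 FPKM in GR-REV at 60 min against 3.19, 3.74 and 1.36 FPKM at 0 min, while WT ran from 0.255 to 2.55 FPKM (median 0.915) at 60 min and from 0.545 to 3.00 FPKM (median 1.33) at 0 min. No other library came near the 3 activated ones. The change beyond WT was 4.24 ± 0.51 (limma, adjusted p = 1.73e-07). ZPR4 moved in the same way, with 54.2, 28.0 and 33.2 FPKM at 60 min and 2.22, 2.80 and 1.79 FPKM at 0 min in GR-REV and a WT range from 0.985 to 2.71 FPKM (median 1.66) at 60 min. Its change beyond WT was 4.08 ± 0.34 (limma, adjusted p = 6.85e-13). ZPR2, the remaining family member, stood at 12.2, 13.0 and 9.44 FPKM at 60 min and 4.46, 8.49 and 8.38 FPKM at 0 min. Its GR-REV libraries at the 2 times did not overlap, but its change of 1.24 ± 0.38 did not pass the test (limma, adjusted p = 0.114).

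The sequences just before ZPR1 and ZPR3 are shown because these genes had the largest rises, alongside 3 further genes whose values follow: ATHB2 and YUC5, which rose, and ATHB6, which fell. Each line holds the 250 bases before the annotated gene start in TAIR10.1, taken from RefSeq and read 5′ to 3′ on the gene's strand. Capitals mark AATGATT or its reverse complement AATCATT, letters that lie within the longer palindrome HD-ZIP III proteins are known to bind in vitro. The ZPR1 stretch is chr2:18734342-18734591 (minus strand) and that of ZPR3 is chr3:19559324-19559573 (minus strand). The ATHB2 stretch is chr4:9448864-9449113 (plus strand), that of YUC5 is chr5:17650376-17650625 (minus strand) and that of ATHB6 is chr2:9527846-9528095 (minus strand).
ZPR1: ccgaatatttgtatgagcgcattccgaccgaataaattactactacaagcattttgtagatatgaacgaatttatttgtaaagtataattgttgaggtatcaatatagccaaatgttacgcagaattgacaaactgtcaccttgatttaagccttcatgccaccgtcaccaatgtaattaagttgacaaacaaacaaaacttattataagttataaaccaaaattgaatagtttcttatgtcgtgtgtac
ZPR3: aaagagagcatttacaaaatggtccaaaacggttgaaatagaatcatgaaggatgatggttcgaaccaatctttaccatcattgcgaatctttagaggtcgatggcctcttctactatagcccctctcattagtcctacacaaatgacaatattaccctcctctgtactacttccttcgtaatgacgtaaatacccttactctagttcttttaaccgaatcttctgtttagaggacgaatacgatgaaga
ATHB2: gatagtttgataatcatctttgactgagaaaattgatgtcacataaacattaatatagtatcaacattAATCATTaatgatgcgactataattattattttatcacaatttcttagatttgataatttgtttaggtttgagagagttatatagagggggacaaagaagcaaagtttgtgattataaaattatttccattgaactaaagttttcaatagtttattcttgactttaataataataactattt
YUC5: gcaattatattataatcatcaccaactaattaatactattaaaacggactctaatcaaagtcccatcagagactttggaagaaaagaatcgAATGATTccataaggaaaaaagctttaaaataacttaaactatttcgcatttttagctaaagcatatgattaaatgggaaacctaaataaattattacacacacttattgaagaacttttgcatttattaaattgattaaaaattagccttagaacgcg
ATHB6: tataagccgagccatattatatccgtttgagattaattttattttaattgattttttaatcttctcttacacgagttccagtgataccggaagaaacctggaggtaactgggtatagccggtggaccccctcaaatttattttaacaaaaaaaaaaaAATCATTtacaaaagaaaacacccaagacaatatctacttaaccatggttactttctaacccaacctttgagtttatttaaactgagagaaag

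The stretches before ZPR1 and ZPR3 hold neither form of AATGATT, while the other 3 were chosen for print because they do. Of the 8 HD-ZIP II genes tested, 1 (ATHB2, 12.5%) holds it in the window described next. Windows ran from 250 bases before to 50 bases after the start and were searched on both strands. AATGATT was found for 26 of the 140 genes that rose (18.6%), for 11 of 88 genes that fell with a window (12.5%), and for 2476 of all 19168 windows (12.9%). The longer palindrome, in which the central base was left free and which can hold AATGATT, was found in 12 of the 19168 windows (0.0626%), and in 0 windows of genes that rose or fell. No match says only that these letters are not in this window.

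HD-ZIP II genes were also raised. Of 8 genes tested, 5 rose (HAT2, HAT3, HAT14, ATHB4 and ATHB2), against 0.727% of all genes tested, and the family median was 1.22. HAT2 read 31.0, 28.2 and 27.1 FPKM in GR-REV at 60 min and 7.22, 8.69 and 10.3 FPKM at 0 min, with WT from 10.2 to 12.8 FPKM (median 11.4) at 60 min. Its activated libraries all lay above every other library, and its change beyond WT was 1.66 ± 0.23 (limma, adjusted p = 3.42e-06). HAT3, which acts in leaf polarity, read 12.1, 8.93 and 13.6 FPKM at 60 min and 3.12, 3.82 and 3.93 FPKM at 0 min in GR-REV, and its WT libraries ran from 3.70 to 6.22 FPKM (median 4.93) at 0 min. The HAT3 groups did not overlap, and the change was 1.72 ± 0.26 (limma, adjusted p = 2.86e-05).

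HAT14 rose by 1.63 ± 0.25 and ATHB4, which works together with HAT3 in the leaf, by 1.37 ± 0.31 (limma, adjusted p = 3.66e-05 and 0.0095). ATHB4 was a low transcript, at 1.64, 1.71 and 1.26 FPKM in GR-REV at 60 min and 0.271, 0.345 and 0.190 FPKM at 0 min. ATHB2, an early marker of shade, read 11.4, 14.7 and 9.49 FPKM at 60 min and 4.34, 6.29 and 6.21 FPKM at 0 min, and changed by 1.07 ± 0.25 (limma, adjusted p = 0.0138). Its WT libraries reached 8.31 FPKM, below the lowest activated library. HAT1, HAT22 and ATHB17 did not pass the test, with changes of 0.78, 0.47 and −0.64. HAT9 and ATHB18 were below 1 FPKM in every group mean and were not tested.

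The HD-ZIP III genes themselves gave no call. All 5 genes, REV among them, missed the threshold in limma, with 0 at an unadjusted p under 0.05, and the family median was −0.24. The REV value adds reads of the fusion and of the native gene, so a change of native REV could not be seen. PHB changed by −0.24, PHV by −0.40, ATHB8 by −0.31 and CNA by −0.19 on the log2 scale, with adjusted p-values in limma of 0.732, 0.517, 0.655 and 0.785. These paralogues of REV are known to share its roles in meristem, leaf and vascular development.

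**Figure D2:**
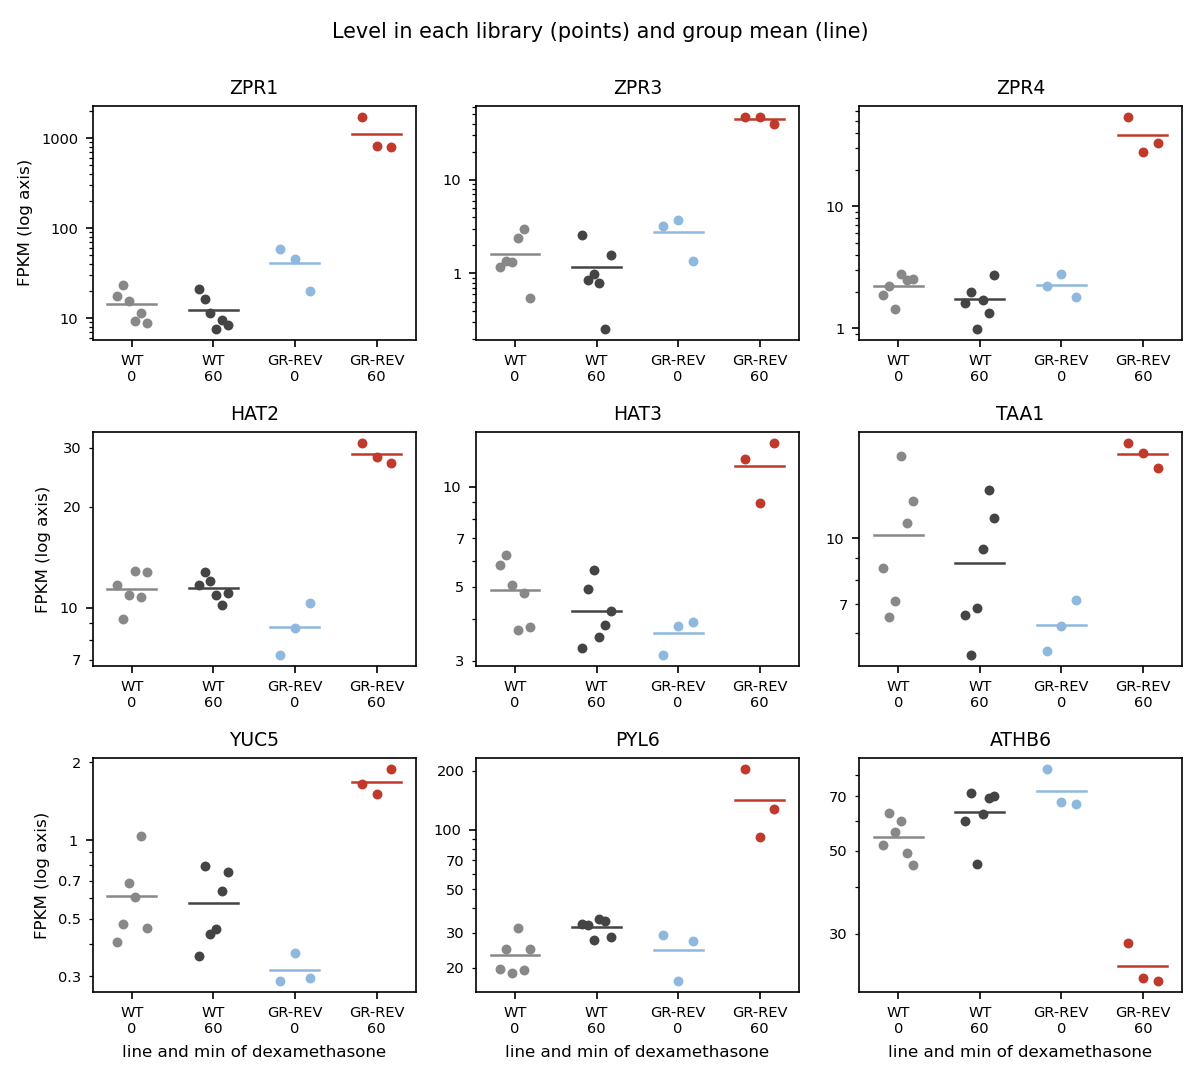
FPKM of single libraries (points, log axis) for 9 genes of the ZPR, HD-ZIP II, HD-ZIP I and hormone groups in WT and GR-REV at 0 and 60 min (x axis), with a line at each group mean. ZPR1 goes from a mean of 41.5 to 1120 FPKM in GR-REV, and ATHB6 from 72.5 to 24.5 FPKM.

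The called HD-ZIP I genes all fell. This family was looked at after the falls of ATHB6 and ATHB5 had been seen, so its count describes these libraries and is not a test. Of 13 genes tested, 0 rose and 5 fell, against 0.462% of all genes tested that fell, and the median was −0.44. ATHB6, a factor known from abscisic acid signalling, read 28.4, 22.8 and 22.4 FPKM in GR-REV at 60 min and 83.0, 67.7 and 66.9 FPKM at 0 min. WT ran from 46.2 to 71.3 FPKM (median 66.2) at 60 min and from 45.8 to 63.2 FPKM (median 54.1) at 0 min, so the activated libraries lay below all others. The change beyond WT was −1.76 ± 0.19 (limma, adjusted p = 2.7e-09), the smallest p among the genes that fell.

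ATHB5, an HD-ZIP I factor linked to abscisic acid responses in seedlings, read 6.498, 7.38 and 4.95 FPKM at 60 min and 15.9, 15.4 and 19.0 FPKM at 0 min in GR-REV, and changed by −1.58 ± 0.26 (limma, adjusted p = 0.000111). Its activated libraries lay below every library of the other groups compared, the lowest of which read 10.8 FPKM. ATHB16 fell by 1.22 on the log2 scale (limma, adjusted p = 0.000104) and ATHB1 by 0.88 (limma, adjusted p = 0.0291). ATHB7, a drought-responsive member, fell by 1.08 (limma, adjusted p = 0.00925) from a 0 min level that stood 0.78 above WT. ATHB52 had a change of similar size, −1.52, that did not pass the test (limma, adjusted p = 0.0836).

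**Figure D3:**
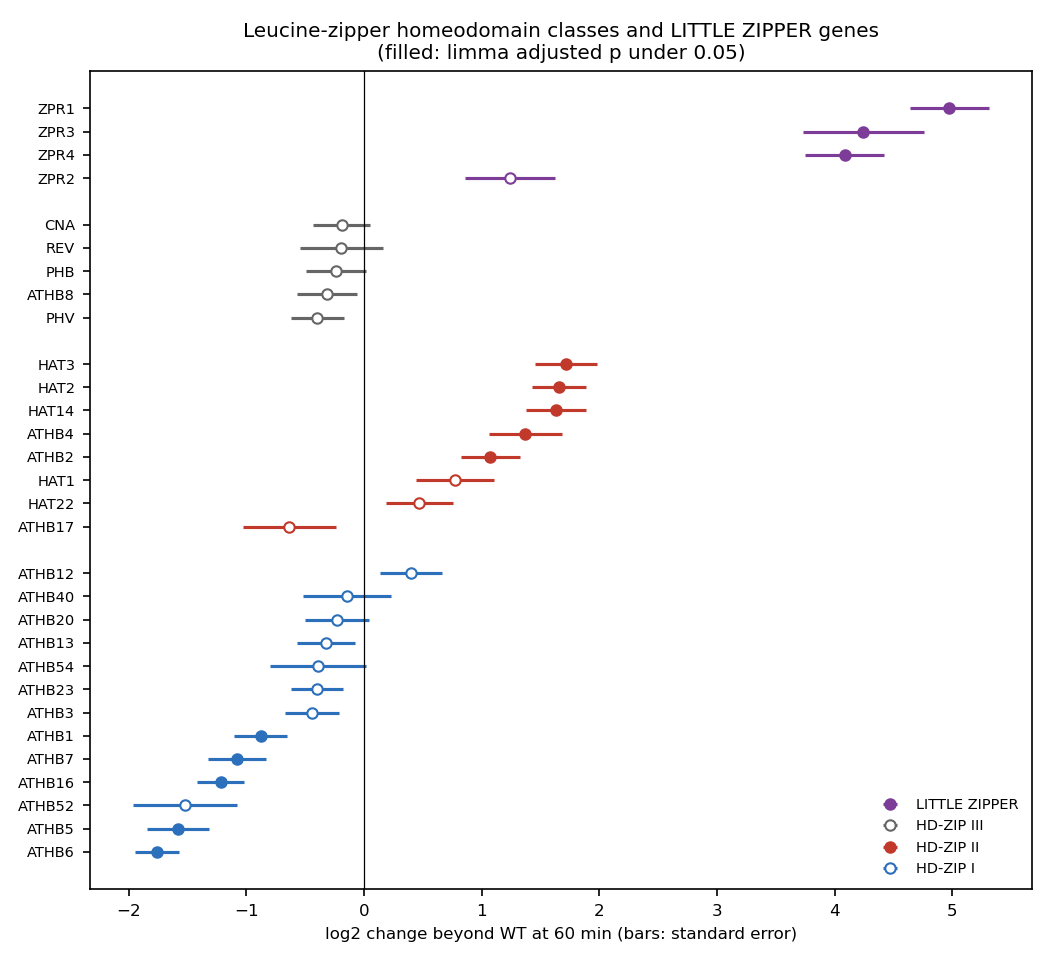
Change beyond WT at 60 min (log2 scale, with 1 SE) for each tested member of the ZPR, HD-ZIP II, HD-ZIP III and HD-ZIP I families, with filled points for genes called at an adjusted p under 0.05. ZPR and HD-ZIP II calls all lie above 0, HD-ZIP I calls all lie below 0, and HD-ZIP III has no call.

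Among 15 genes named as REV targets in published work, 10 rose and 0 fell, with a median of 1.37. Over all genes tested, 0.727% rose. The target list contains ZPR and HD-ZIP II genes just described and was partly drawn up on plants of this kind, so it is not independent evidence of direction. Its hormone genes were TAA1 and YUC5, which make consecutive steps of auxin synthesis, and PYL6, an abscisic acid receptor. The targets that did not pass the test were WRKY53, a factor known from leaf senescence, at 0.75 (adjusted p = 0.525), RTFL12 at −1.48 (adjusted p = 0.242), the auxin importers LAX2 at 0.69 (adjusted p = 0.417) and LAX3 at 0.66 (adjusted p = 0.395), and AGO10, which sequesters the microRNA that cuts HD-ZIP III transcripts, at 0.53 (adjusted p = 0.437), all in limma. CIPK12, a protein kinase of the calcium-sensor network, rose by 0.80 ± 0.18 (limma, adjusted p = 0.00925).

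Auxin synthesis contributed 2 rises among 6 genes tested, against 0.727% of all genes tested. TAA1 read 16.8, 15.9 and 14.7 FPKM in GR-REV at 60 min and 5.42, 6.22 and 7.16 FPKM at 0 min, and changed by 1.48 ± 0.20 (limma, adjusted p = 1.33e-06). WT spread widely for this gene, from 6.53 to 15.6 FPKM (median 9.70) at 0 min, and its upper end overlaps the activated libraries. YUC5 read 1.64, 1.502 and 1.88 FPKM at 60 min and 0.287, 0.367 and 0.296 FPKM at 0 min, and changed by 1.46 ± 0.27 (limma, adjusted p = 0.000911). It reached 1 FPKM only in GR-REV groups after dexamethasone, so it entered the test through its own rise.

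Genes that respond to auxin or transport it were mostly not called. IAMT1, which methylates auxin, rose by 2.50 ± 0.43 (limma, adjusted p = 0.000165), from 6.98, 5.20 and 4.34 FPKM to 43.8, 12.7 and 29.6 FPKM in GR-REV. GH3.3, which conjugates auxin to amino acids, was the single call among 17 Aux/IAA and GH3 genes and fell by 1.17 (limma, adjusted p = 0.0244). Its 0 min level stood 1.06 above WT (limma, adjusted p = 0.000738). None of 14 auxin transport genes was called in limma, with 3 at an unadjusted p under 0.05, against 2137 of all 19251 genes tested. Of 66 genes annotated as SAUR-like auxin-responsive, 2 rose (AT1G16510 and AT1G29430) and 2 fell (AT1G75580 and AT2G21210), and their median was 0.22. Over all genes tested, 0.727% rose and 0.462% fell. The SAUR-like family was looked at after its values were seen. AT1G75580 fell by 1.74 and AT1G16510 rose by 1.76 (limma, adjusted p = 0.008 and 0.000323).

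PYL6 was the single call among 9 abscisic acid receptor genes, where 1.19% of all genes tested were called. It read 204, 91.8 and 127 FPKM in GR-REV at 60 min and 29.4, 17.1 and 27.4 FPKM at 0 min, with WT from 27.6 to 35.5 FPKM (median 33.0) at 60 min. The activated libraries were all above the highest of the others, and the change was 1.98 ± 0.28 (limma, adjusted p = 5e-06). In limma, 5 of the 9 receptor genes had an unadjusted p under 0.05, against 2137 of all 19251 genes tested. The median change was 0.415, from which the upward drift of genes with high levels was not taken out. Changes were positive in 7 of the 9 and negative in 2. PYR1 changed by 1.101, PYL2 by 0.903, PYL1 by 0.415 and PYL5 by −0.609 without passing the test (limma, adjusted p = 0.123, 0.43, 0.425 and 0.343). Of 6 clade A protein phosphatases, which the receptors inhibit, ABI1 rose by 0.60 (limma, adjusted p = 0.048) and HAI1 fell by 1.55 (limma, adjusted p = 0.0054). HAI1 was at 2.16, 1.62 and 1.91 FPKM in GR-REV at 0 min, above all WT libraries, and at 0, 0.379 and 0.371 FPKM at 60 min, no higher than WT. The ABI1 call kept its side of the threshold in 3 of the 18 fits that left out a library, and was lost after cyclic loess normalisation, with an adjusted p of 0.052.

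Gibberellin and brassinosteroid synthesis each held called genes, where 1.19% of all genes tested were called. GA3OX1, which makes active gibberellins, read 23.0, 22.4 and 20.6 FPKM in GR-REV at 60 min and 9.46, 8.16 and 8.24 FPKM at 0 min. Its change was 1.58 ± 0.22 (limma, adjusted p = 3.81e-06), and the other 4 gibberellin oxidase genes tested were not called. DWF4, which catalyses a limiting early step of brassinosteroid synthesis, rose by 0.97 ± 0.19 (limma, adjusted p = 0.00123), and BR6OX2, which catalyses the last steps, fell by 1.46 (limma, adjusted p = 8.63e-05). BR6OX2 read 6.501, 2.94 and 4.26 FPKM at 60 min and 15.1, 9.20 and 12.9 FPKM at 0 min in GR-REV. The remaining 4 brassinosteroid genes were not called.

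Jasmonate genes had 1 call among the 18 listed, where 1.19% of all genes tested were called. AIB, a called factor of jasmonate signalling given further below, was outside this list. MYC2, the bHLH factor at the head of jasmonate responses, fell by 1.11 (limma, adjusted p = 0.00849), from 16.1, 15.0 and 16.3 FPKM to 8.63, 8.03 and 6.80 FPKM in GR-REV. WT libraries of both times stood between 4.16 and 6.51 FPKM, so MYC2 began above WT in every GR-REV library and was still above it at 60 min. The 18 jasmonate genes had a median difference between the lines of 2.03 at 0 min.

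XTH32, a cell-wall xyloglucan endotransglucosylase, was among the largest rises of an abundant transcript. It read 606, 175 and 321 FPKM in GR-REV at 60 min and 79.9, 43.9 and 29.6 FPKM at 0 min, with WT from 45.4 to 58.3 FPKM (median 50.3) at 60 min. The activated libraries were above all others but spread more than 3-fold among themselves, and the change was 2.79 ± 0.60 (limma, adjusted p = 0.00549). XTH9 rose by 1.76 ± 0.37 (limma, adjusted p = 0.00424), from 183, 160.3 and 66.1 FPKM to 341, 368 and 383 FPKM. EXGT-A3, whose synonym in RefSeq is a further XTH name, rose by 1.31 ± 0.31 (limma, adjusted p = 0.0148), from 142, 70.1 and 64.3 FPKM to 374, 174 and 175 FPKM, and lost its call without WT replicates 4 to 6. Of the 33 genes with an XTH symbol or synonym, 27 were tested, 3 rose and 0 fell, against 0.727% of all genes tested that rose. The median of these XTH genes was 0.04. This family was looked at after XTH32 had been seen.

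Families of growth regulators that were likewise looked at after their values were seen held several rises, where 0.727% of all genes tested rose. The cyclin-dependent kinase inhibitors KRP2 and KRP7 rose by 1.25 ± 0.19 and 1.23 ± 0.28 (limma, adjusted p = 2.95e-05 and 0.00819), 2 of 7 KRP genes. KRP2 read 31.1, 25.1 and 27.5 FPKM in GR-REV at 60 min and 10.01, 13.0 and 11.1 FPKM at 0 min. Of 11 OVATE FAMILY PROTEIN genes, which encode transcriptional repressors, OFP5, OFP6 and OFP16 rose. OFP5 read 4.73, 5.17 and 3.00 FPKM at 60 min and 0.939, 0.874 and 0.600 FPKM at 0 min, and changed by 1.70 ± 0.25 (limma, adjusted p = 1.75e-05). OFP6 changed by 1.87 (adjusted p = 0.00222) and OFP16 by 1.55 (adjusted p = 0.0067), both in limma. None of the 8 cell-cycle genes of a separate list was called in limma. Of these, 3 had an unadjusted p under 0.05, against 2137 of all 19251 genes tested.

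Several of the strongest rises belong to genes with little annotation. AT1G70985, annotated as a hydroxyproline-rich glycoprotein, read 128, 60.6 and 85.6 FPKM in GR-REV at 60 min and 17.41, 11.6 and 5.57 FPKM at 0 min, a change of 3.28 ± 0.51 (limma, adjusted p = 3.56e-05). AT3G22810, annotated as an auxin canalization protein with a DUF828 domain, read 9.20, 5.18 and 8.65 FPKM and 0.715, 1.02 and 1.54 FPKM at the same times, a change of 2.51 ± 0.25 (limma, adjusted p = 5.8e-10). Its activated libraries were above all other libraries. The neighbours AT2G18969 and AT2G18970 changed by 2.67 and 2.53, but overlap on opposite strands at chr2:8229000-8229574 and chr2:8229116-8229755 in TAIR10.1. The labels do not say whether the authors' quantification used strand, so these 2 values may share reads. Other called genes also overlap an annotated gene on the opposite strand, and the same limit holds for them. Among these are OFP5, ATHB1, MYC2, ABI1, BMY3, BES1, HB24, AT1G49200 and AT2G36030.

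Among the 10 smallest p-values were also iqd9, a calmodulin-binding IQ-domain protein gene, and AT2G34010, annotated as verprolin, which lie at chr2:14360255-14362511 and chr2:14368536-14370438. They changed by 1.53 ± 0.19 and 2.02 ± 0.26 (limma, adjusted p = 3.74e-07 and 1.07e-06). AT2G34010 went from 1.01, 1.74 and 1.33 FPKM to 9.04, 6.62 and 8.53 FPKM in GR-REV. AT2G40435, annotated as SCREAM-like, rose by 2.38 ± 0.46 (limma, adjusted p = 0.00132) from a 0 min level already 1.86 above WT, and it overlaps an annotated gene on the opposite strand. AT3G07425 and AT2G36030, both uncharacterised, rose by 2.122 and 2.29 (limma, adjusted p = 0.0163 and 0.0289). AT2G36030 stood −2.33 against WT at 0 min and kept its call in 11 of the 18 fits that left out a library.

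The largest fall was that of AT5G41761, an uncharacterised gene, from 6.42, 3.38 and 6.25 FPKM to 0.777, 0.743 and 0.851 FPKM in GR-REV (limma, adjusted p = 0.00848). The NAC factors NAC047 and NAC6 fell by 1.93 and 1.89 (limma, adjusted p = 0.0163 and 0.0166). NAC6, known for its part in leaf senescence, read 1.26, 0.855 and 1.51 FPKM at 60 min and 3.65, 4.39 and 5.18 FPKM at 0 min. Its activated libraries all lay below the lowest WT library, which read 1.98 FPKM. NAC047 began above WT in every GR-REV library and at 60 min lay below every WT library of that time.

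The remaining large falls cover several kinds of protein. AT1G15670, a kelch-repeat protein gene, fell by 1.70, AT5G41400, a RING/U-box protein gene, by 1.52, and AT3G57380, a glycosyltransferase gene, by 1.55 (limma, adjusted p = 0.021, 0.000574 and 0.0095). AT5G54300, a DUF761 gene that overlaps annotated genes on the opposite strand, fell by 1.65 (limma, adjusted p = 0.000911). AT4G37810, annotated as an EPIDERMAL PATTERNING FACTOR-like peptide, fell by 1.51 (limma, adjusted p = 0.0289). CAX7, a cation exchanger gene, fell by 1.74 (limma, adjusted p = 0.0467) from a 0 min level 1.68 above WT, and its call held in 5 of the 18 fits that left out a library and was lost after cyclic loess normalisation (adjusted p = 0.0627).

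Genes of abaxial (lower-side) leaf identity, which act against HD-ZIP III factors, gave 1 call among 10. Over all genes tested, 1.19% were called. KAN2 fell by 0.75 (limma, adjusted p = 0.0428), from 3.34, 3.17 and 2.80 FPKM to 1.24, 1.04 and 1.56 FPKM in GR-REV, with WT between 2.14 and 3.596 FPKM over both times. Its activated libraries lay below all others, but the call held in 5 of the 18 fits that left out a library and was lost after cyclic loess normalisation (adjusted p = 0.0766). KAN1 changed by −1.01 without passing the test (limma, adjusted p = 0.267). Among 7 shade and light bHLH genes, PIL1, a shade marker, fell by 1.098 (limma, adjusted p = 0.0171), and after cyclic loess normalisation its adjusted p was 0.0706. LOG1, a called gene of cytokinin activation given further below, was outside the lists counted here. No gene was called in limma among 11 meristem and organ boundary genes, 8 xylem genes, 9 IPT and CKX genes of cytokinin synthesis and oxidation, or 9 type-A response regulators, in which the unadjusted p was under 0.05 for 2, 1, 1 and 2 genes. The same held for 10 touch and early stress genes, 8 heat-shock genes, 7 PDF1 defensins and 4 genes of abscisic acid output, where the unadjusted p was under 0.05 for 0, 3, 0 and 0 genes. Over all genes tested, 2137 of 19251 had such a p. The PDF1 and touch genes had median differences between the lines of 5.18 and 1.14 at 0 min. PDF1 changes had a wide SE, with 1.22 ± 1.07 for PDF1.2, so the lack of a call there says little.

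Few genes were called at 30 min. At 30 min after dexamethasone, 8 genes rose beyond WT and 0 fell in limma (0.0416% of genes tested, with 1099 genes in either direction at an unadjusted p under 0.05), and at 120 min 90 rose and 66 fell (0.81%). These comparisons use the same 0 min libraries as the one at 60 min, and the 30 min GR-REV group had 2 libraries, so values are given side by side. The number of calls is therefore not the number of genes that moved. The 15 REV targets named above had medians of 0.893 and 0.877 at 30 and 120 min, with 3 and 5 called higher. The 8 genes at 30 min were ZPR1, HAT2, ATHB2, OFP5, OFP16, AT3G22810, AT2G18969 and AT1G49200, a RING/U-box gene. ZPR1 changed by 2.16, 4.98 and 5.43 on the log2 scale at 30, 60 and 120 min. ATHB2 changed by 1.67, 1.07 and 0.89, and OFP16 by 2.32, 1.55 and 1.56, with the highest value of each at 30 min.

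ZPR3 and ZPR4 stood at 2.03 and 1.496 at 30 min without passing the test (limma, adjusted p = 0.341 and 0.185) and were still called at 120 min, at 3.75 and 3.46. PYL6 changed by 1.22, 1.98 and 0.88 at the 3 times, and passed the test at 60 min alone. Its 120 min libraries in GR-REV, between 52.0 and 92.8 FPKM, remained above all WT libraries at that time, which ended at 43.5 FPKM. ATHB6 changed by −0.92, −1.76 and −1.27, with adjusted p-values in limma of 0.0735, 2.7e-09 and 5.87e-05. Differences between these times were not tested.

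**Figure D4:**
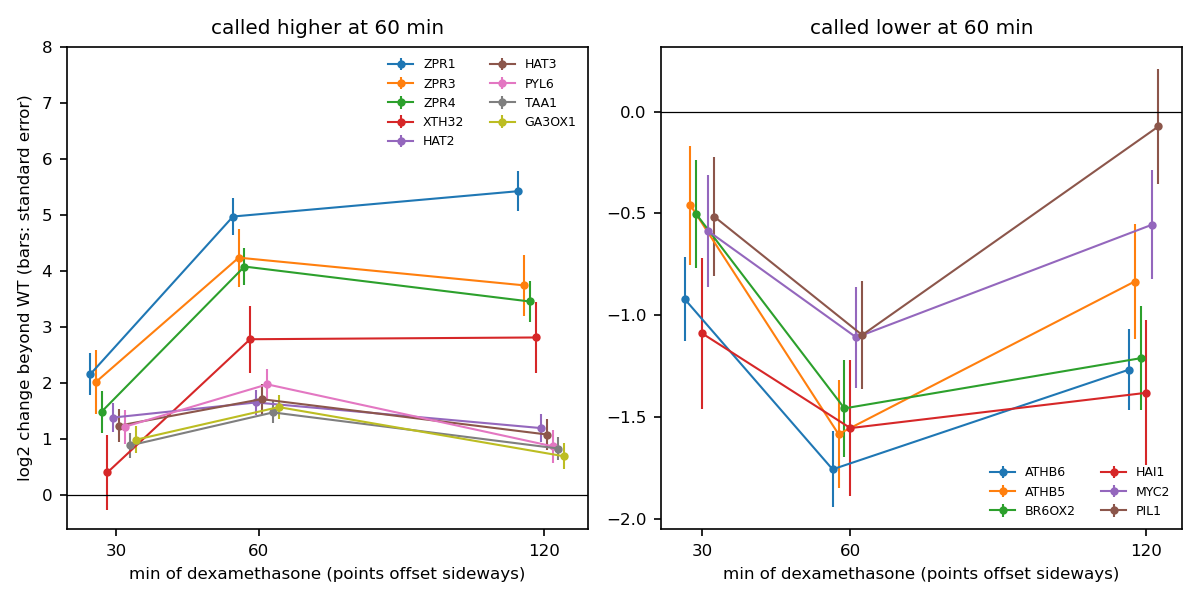
Change beyond WT (y axis, log2 scale, bars of 1 SE) at 30, 60 and 120 min of dexamethasone (x axis, points offset sideways) for 9 genes that rose at 60 min (left) and 6 that fell (right). The ZPR genes are highest on the left at 60 and 120 min, and PYL6 is highest at 60 min. All times are set against the same 0 min libraries.

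The other fusion lines of the series, in which GR-KAN1, GR-STM or GR-AS2 was activated in the same way with 3 libraries at each time, show how these genes behaved when another factor was released. The GR-REV change at 60 min differed from the GR-KAN1 change in 399 genes (2.07% of genes tested), from the GR-STM change in 272 (1.41%, with 0.743% higher and 0.67% lower) and from the GR-AS2 change in 108 (0.561%). These counts depend on the pooled fit: with only the 12 libraries of each comparison, 80 genes were higher and 40 lower against GR-KAN1, 59 and 55 against GR-STM, and 4 and 3 against GR-AS2. All of these tests share the GR-REV libraries with the comparison against WT. For ZPR1 the GR-REV change exceeded that of GR-KAN1 by 4.72, of GR-STM by 5.72 and of GR-AS2 by 4.88 (limma, adjusted p = 1.24e-12, 4.47e-16 and 3.16e-13). ZPR3 and ZPR4 exceeded the GR-KAN1 change by 4.04 and 4.34 (limma, adjusted p = 6.06e-06 and 1.06e-11).

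KAN1 is an abaxial factor known to act against HD-ZIP III genes. Some genes that rose with GR-REV fell with GR-KAN1 in its own libraries. They are named here after their values were seen, and the share of all rises that fell in GR-KAN1 was not counted. The GR-KAN1 changes are those of its own libraries and are not set against WT. From 0 to 60 min, HAT2 changed by −1.31, OFP5 by −1.17, PYL6 by −1.003, TAA1 by −0.87 and GA3OX1 by −0.76 in GR-KAN1, with adjusted p-values in limma of 3.07e-06, 0.000166, 0.00491, 0.000281 and 0.007. ATHB6, which fell with GR-REV, rose by 0.63 in GR-KAN1 (limma, adjusted p = 0.00888) and fell by 0.65 in GR-STM (limma, adjusted p = 0.00849). In GR-KAN1, ATHB6 stood between 60.4 and 70.2 FPKM at 0 min and between 94.0 and 111 FPKM at 60 min, so these libraries did not overlap. The difference between the GR-REV and GR-KAN1 changes of ATHB6 was −2.18 ± 0.21 (limma, adjusted p = 1.56e-10).

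**Figure D5:**
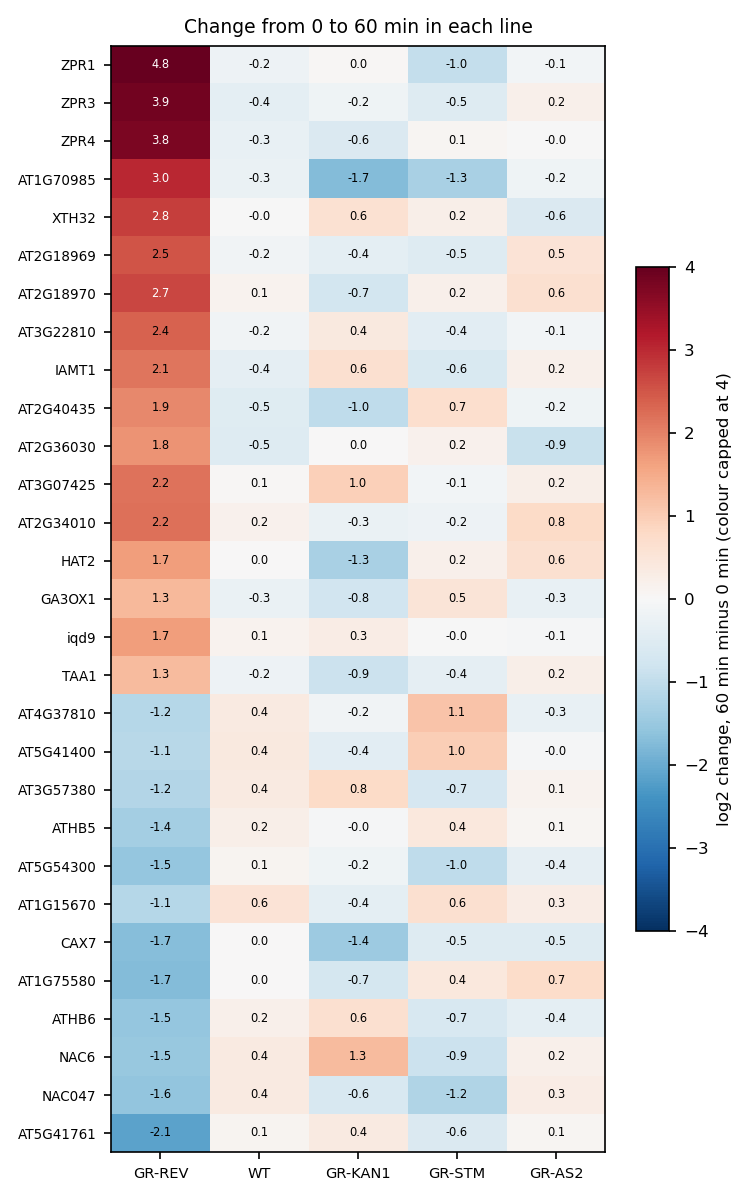
Change from 0 to 60 min on the log2 scale (numbers and colour, colour capped at 4) in GR-REV, WT, GR-KAN1, GR-STM and GR-AS2 (columns) for 29 genes with the largest changes or the smallest p-values in the comparison with WT (rows). The 3 ZPR rows reach 3.8 to 4.8 in the GR-REV column, and HAT2, TAA1 and GA3OX1 are lowered in the GR-KAN1 column.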

How the data were processed

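RNA of whole seedlings was measured by oligo-dT primed Illumina sequencing, per the labels' protocols. The authors deposited FPKM values, geometrically normalised across libraries, from TopHat2 2.0.10 and Cufflinks on genome build TAIR10, per the submitters' processing notes. Read depth per library cannot be had from these values. Of 22346 entries, 14 placeholders and 200 organelle genes were left out, as was 1 value in a column without a name. Of 22132 nuclear genes, 22041 matched a TAIR10.1 locus, and 19251 with a group mean of at least 1 FPKM were tested. One linear model per gene (limma 3.58.1, R 4.3.3) was fitted to log2(FPKM + 0.5) of 71 libraries in 20 groups, with the series of library codes as a covariate (49 residual degrees of freedom). Calls used Benjamini-Hochberg adjustment at 0.05. The fit was run on simulated data with independent noise and no line difference at 0 min, which does not test the calls. Genes named were the 12 largest rises and 12 largest falls called with no library at 0 and no overlap of the GR-REV times, the 10 smallest p-values, called members of gene lists, all members of the zipper and target lists, and tissue markers. All lists and members were chosen with earlier results of these data known, and the HD-ZIP I, KRP, OFP and XTH families after their values were seen. Alternatives changed the pseudocount, filter, covariate, normalisation, libraries and weighting. The labels do not say whether replicates came from separate flasks, so p-values measure the spread between these libraries. The sequence before ZPR4 is not reported here.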

Additional observations from a re-analysis of the deposited data

Results flagged for a closer look

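Among 134 pairs of a named gene and a WT group of 6 libraries, 7 held a library far from the other 5, where chance flags about 5% of pairs. Of these 7, 6 came from 1 library, WT 0 min replicate 2, which also lay far from its group on the main axis of the residuals. In WT 0 min replicate 2, XTH32 stood at 113 FPKM, AT2G40435 at 8.04 FPKM and the photosynthetic marker CAB3 at 17700 FPKM, all high, while ATHB8 at 1.49 FPKM, CNA at 2.23 FPKM and AGO10 at 1.94 FPKM were low. The medians of the group were 44.8, 3.79, 4960, 2.89, 4.56 and 4.13 FPKM. In WT 60 min replicate 2, BR6OX2 stood at 14.4 FPKM against a median of 8.58 FPKM.

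The 10 genes with the smallest p-values were also set between fusion lines, and the values here are those where the change in GR-REV from 0 to 60 min differed from that in another line by the test and the fitted changes had opposite signs. A sign can be opposite with next to no change in the other line: ZPR4 and ZPR1 changed by −0.0015 and −0.12 in GR-AS2, and ZPR3 by −0.17 in GR-KAN1. Against GR-KAN1, in which the abaxial factor KAN1 was activated, the differences by limma were 4.34 for ZPR4, 4.04 for ZPR3, 2.98 for HAT2, 2.47 for AT2G34010, 2.15 for TAA1, 2.06 for GA3OX1 and −2.18 for ATHB6 on the log2 scale. Against GR-STM they were 5.72 for ZPR1, 4.39 for ZPR3, 2.79 for AT3G22810, 2.42 for AT2G34010, 1.66 for iqd9 and 1.65 for TAA1. Against GR-AS2 they were 4.88 for ZPR1, 3.78 for ZPR4, 2.47 for AT3G22810, 1.72 for iqd9 and 1.61 for GA3OX1.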

How the results depend on the processing

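The 53 named genes called were recomputed under 31 settings, except 9 that were not tested with a filter of 5 FPKM: 1456 of 1634 values kept their direction and their side of the threshold, 178 kept the direction but lost the call, and 0 turned. Of the 140 rises and 89 falls, 55 and 19 (74 in all) remained as counts when WT replicates 4 to 6 were left out, 76 and 45 (121) when the 18 libraries alone were fitted, and 54 falls without the covariate for library codes. Array weights gave 227 and 259 (486), in a weighting that stopped before converging. Leaving out 1 library in turn gave 98 to 156 rises, 37 to 104 falls and 135 to 260 calls in all. Only 72 of the genes called in the main fit kept their call in all 18 of these fits. They were 57 of the 140 rises and 15 of the 89 falls. The low ends of falls and of all calls, 37 and 135, came without GR-REV 0 min replicate 3, and there were 50 falls without GR-REV 60 min replicate 3. Cyclic loess normalisation, chosen after seeing the data, gave 158 and 84. Fits of 12 libraries gave 80 and 40 calls higher and lower against GR-KAN1 in place of 255 and 144, 59 and 55 against GR-STM in place of 143 and 129, and 4 and 3 against GR-AS2 in place of 72 and 36. The cause of these differences was not tested.

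With the replicate number as a block in a fit of the 18 libraries alone, 45 genes rose and 19 fell (64), against 76 and 45 (121) in the same fit with no block. Libraries with the same number share only that number here: residuals of the same number at 0 and 60 min correlated at 0.228, 0.393 and 0.0637 in GR-REV and between −0.293 and 0.151 in WT, and matched best with their own number in 3 of 9 pairs. Depth could not be recovered from the FPKM values, so no counting error can be given for genes near 0.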

Other observations

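Further genes with known roles in growth and vascular patterning were called at 60 min and are given here as chosen after their values were seen. WOX4, a homeobox gene that promotes cell division in the vascular cambium, rose by 1.32 ± 0.31 (SE) on the log2 scale (limma, adjusted p = 0.0138), from 2.80, 3.94 and 2.45 FPKM in GR-REV at 0 min to 5.41, 6.85 and 9.44 FPKM at 60 min. CLE41, which encodes a peptide made in the phloem that acts on the cambium, fell by 0.87 on the log2 scale (limma, adjusted p = 0.00999), from 13.6, 13.2 and 15.0 FPKM to 7.92, 9.03 and 6.90 FPKM. BES1, a brassinosteroid-signalling factor, rose by 1.51 (limma, adjusted p = 0.00848), and GRF4, a growth-regulating factor, by 1.55 (limma, adjusted p = 8.63e-05). GRF4 read 7.55, 9.36 and 7.46 FPKM at 60 min, above all WT libraries, and was the single call among 7 growth-regulating factor genes. Over all genes tested, 0.727% rose.

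HB22, HB24 and HB30, zinc-finger homeodomain genes, rose by 1.54, 0.89 and 0.70 (limma, adjusted p = 0.000171, 0.0331 and 0.0464). The other members of that family were not counted, so these rises say nothing about the family as a whole. UBC17, which encodes a ubiquitin-conjugating enzyme, rose by 1.88 and BMY3, a beta-amylase gene, by 1.89 (limma, adjusted p = 2.75e-05 and 2.86e-05). LOG1, which activates cytokinins, rose by 1.53, and HLS1, which is needed for the apical hook, by 1.33 (limma, adjusted p = 0.00819 and 0.000452). AIB, a bHLH factor of jasmonate signalling, fell by 1.19 on the log2 scale (limma, adjusted p = 0.000452) from a 0 min level 1.02 above WT. Of 40 NAC domain genes tested, 0 rose and 3 fell (NAC047, NAC3 and NAC6), with a median of −0.45, against 0.462% of all genes tested that fell. Of 25 NPH3 genes, whose best-known member acts in phototropism, 3 rose and 0 fell, with a median of −0.12, against 0.727% of all genes tested that rose. One of the 3, AT1G52770, reached 1 FPKM only in GR-REV groups after dexamethasone and so entered the test through its own rise.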
